A study of Homo sapiens with 4 samples.

Results

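SR proteins and heterogeneous nuclear ribonucleoproteins (hnRNPs), together with the TRA2 proteins, PTBP1 and the CLK kinases, were followed in HCT116 cells in which WDR43, a nucleolar factor needed to make the small ribosomal subunit, was knocked down. Members were taken by symbol: every SRSF gene with a number, every HNRNP gene, TRA2A, TRA2B, PTBP1 and CLK1 to CLK4, without pseudogenes and without antisense or divergent transcripts. This gave 42 genes of the 29286 listed, of which 12 encode SR proteins, 2 TRA2 proteins, 24 hnRNPs (PTBP1, also called hnRNP I, is counted with them) and 4 CLK kinases. The cells carried a lentiviral short hairpin against WDR43 (shWDR43, 2 libraries) or a control hairpin (shNC, named shNC2 in the sample titles, 2 libraries). In both groups the protocol gives 48 h of infection and then 3 days of puromycin selection. HCT116 is an established line of colorectal carcinoma cells, and the labels do not say how many WDR43 hairpins were used.

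SR proteins bind exonic enhancers through RNA recognition motifs and recruit the spliceosome through arginine-serine-rich domains. Phosphorylation of these domains by CLK and SRPK kinases governs where SR proteins reside and how active they are. hnRNPs coat nascent transcripts, often opposing SR proteins at exons. Many genes of both families are known to limit their own output by splicing in a poison exon, or retaining an intron, so that the transcript is degraded by nonsense-mediated decay.

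Values were read as FPKM, fragments scaled by transcript length and by mapped total, so levels of different genes can be compared. Library sums ran from 393582 to 413758 FPKM, and the read depth is unknown. Libraries within a group were closer to each other (SD of the log2 difference across genes 0.177 for shWDR43 and 0.245 for shNC) than libraries of different groups (0.281 to 0.317). WDR43 itself was not analysed here, and the knockdown was therefore not checked. The epithelial gene EPCAM was at 160 and 159 FPKM in shWDR43 and at 155 and 181 FPKM in shNC, while the villin gene VIL1 was at 0.0708 FPKM or less throughout and CDX2, an intestinal transcription factor gene, lay between 1.59 and 1.74 FPKM. The epithelial keratin gene KRT8 was at 807 and 798 FPKM in shWDR43 and at 531 and 603 FPKM in shNC, and its part in the results was not tested. Among markers of other cell types, the collagen gene COL3A1 and the endothelial gene PECAM1 did not exceed 0.0170 and 0.128 FPKM. The collagen gene COL1A1 was at 7.14 and 5.69 FPKM in shWDR43 and at 7.80 and 6.98 FPKM in shNC, and the vimentin gene VIM at 2.60 and 1.97 FPKM in shWDR43 and at 3.11 and 3.26 FPKM in shNC. The labels do not say whether replicates were separate cultures, so the p-values cover library-to-library spread that may be only technical. With 2 libraries a group, an exact permutation test of a single value cannot go below p = 0.333.

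Of the 42 genes, 41 reached 1 FPKM in at least 2 libraries and were tested, and 2 passed: CLK1 fell and HNRNPAB rose in shWDR43 cells. That is 4.88% of the tested members, against 6.26% of all 13303 tested genes (limma on log2(FPKM + 1), Benjamini-Hochberg adjusted p below 0.05). Of the 41, 34 have a mean of 20 FPKM or more, and of the 2704 tested genes at that level 10.7% passed. By direction the shares of all tested genes were 4.79% higher and 1.47% lower. The higher and lower calls over all genes numbered 637 and 196, but 298 and 236 after median-ratio scaling and 194 and 182 after upper-quartile scaling. In the median, members had a log2 difference of -0.06, against 0.05 for all tested genes, and a median absolute log2 difference of 0.14, against 0.16. For 39 of the 41, the 95% interval of the difference lay within a 1.5-fold change in either direction. The exceptions were SRSF8 and HNRNPA1L2, which are among the 4 lowest tested members. Intervals within that range were found for 10328 of all 13303 tested genes and for 2294 of the 2704 at a mean of 20 FPKM or more. Adding 1 FPKM shrinks the differences of low members, so their intervals need not exclude a 1.5-fold change in FPKM. HNRNPA1L3 had a log2 difference of -0.20, but of -0.33 with 0.1 FPKM added instead. Leaving out a control library raised the share of all genes called to 13.6% (without shNC replicate 1) or 19.8% (without shNC replicate 2), and leaving out a knockdown library lowered it to 2.88% or 3.42%. In those fits the lone library of a group is assumed to vary like the other group, and no member passed without either shWDR43 replicate. The share of all genes called was also higher with a filter at 5 FPKM (12.2%) and for protein-coding genes alone (9.82%). With a block of crossed replicate numbers it was 14.7%. CLK1, HNRNPAB, SRSF3 and, among other splicing genes, TARDBP and SNRPB passed in each of these fits. In bulk RNA, a change in the number of cells expressing a gene and a change per cell cannot be told apart.

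**Figure D1:**
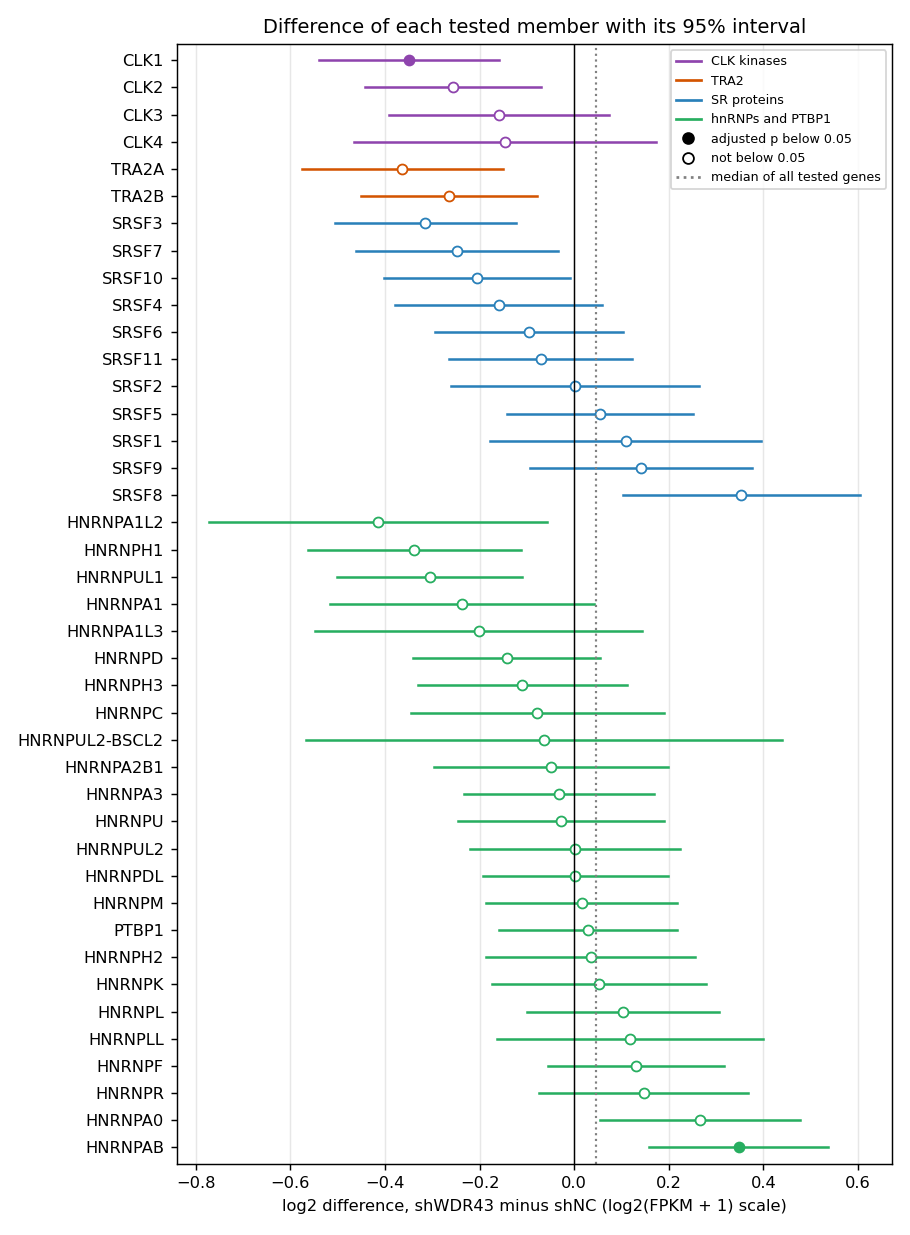
Log2 difference of each of the 41 tested members, shWDR43 minus shNC, with its 95% interval, by family. Filled points are the 2 genes that passed, CLK1 and HNRNPAB, and the dotted line is the median of all tested genes (0.05); the 4 CLK and 2 TRA2 points lie left of 0.

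Both libraries of shWDR43 lay below both of shNC for 17 of the 41 members, and above both for 7. Over all tested genes the groups were free of overlap for 57.3%, with 21.5% below and 35.8% above, and among the 2704 genes with a mean of 20 FPKM or more they were 22% below and 42.9% above. By family, 3 of 4 CLK genes, 2 of 2 TRA2 genes, 5 of 11 SR genes and 7 of 24 hnRNP genes lay below. Above lay 1 SR gene and 6 hnRNP genes, and no CLK or TRA2 gene. The family medians on the log2 scale were -0.21 for CLK genes, -0.31 for TRA2 genes, -0.07 for SR genes and -0.01 for hnRNP genes. Against shNC replicate 1, shWDR43 replicates 1 and 2 had medians of -0.003 and -0.015 for SR genes and 0.027 and 0.035 for hnRNP genes. Against shNC replicate 2 these were -0.20 and -0.094 for SR genes and -0.052 and -0.058 for hnRNP genes. Over all members they were -0.0025 and -0.034, then -0.12 and -0.094. CLK and TRA2 medians were negative in every pairing. Scaling set the sign of many small differences. Negative differences numbered 12 of 24 for hnRNP genes and 6 of 11 for SR genes in the deposited values, against 41.97% of all tested genes, and 18 and 8 after either median-ratio or upper-quartile scaling. The median log2 difference of all tested genes moved too, from 0.0459 to -0.0074 and -0.0136 under these scalings. The share of all genes that was negative after scaling was not counted, so the 41.97% does not apply there. All 4 CLK and both TRA2 differences were negative under each scaling, but the CLK4 difference turned positive without shNC replicate 1.

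The summed level of the CLK genes was 113 and 112 FPKM in shWDR43, against 131 and 137 FPKM in shNC. The TRA2 sum was 88.1 and 86.2 FPKM in shWDR43, against 107 and 113 FPKM in shNC. In both families the groups did not overlap. SR genes summed to 548 and 526 FPKM in shWDR43 and to 535 and 563 FPKM in shNC, and the groups overlapped. hnRNP genes summed to 2789 and 2735 FPKM in shWDR43 and to 2817 and 3046 FPKM in shNC, also without overlap. The share of the library total held by all members was 0.859% and 0.860% in shWDR43, against 0.912% and 0.933% in shNC. The shNC libraries differed among themselves, as replicate 2 was above replicate 1 for 30 of the 41 tested members (73.2%), for 6414 of all 13303 tested genes (48.2%) and for 1788 of the 2704 genes at a mean of 20 FPKM or more (66.1%).

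The CLK kinases are dual-specificity kinases that phosphorylate SR proteins in the nucleus. CLK1 (ENSG00000013441, chromosome 2, 200853009 to 200864744, minus strand, GENCODE release 29 on GRCh38) was at 35.3 and 38.3 FPKM in shWDR43 cells, against 46.8 and 47.5 FPKM in shNC cells. Both knockdown libraries lay below both controls. The mean was 36.8 ± 2.13 FPKM in shWDR43 and 47.1 ± 0.494 FPKM in shNC (SD, n = 2 each), a ratio of 0.781. The log2 difference of -0.35 ± 0.08 (SE) had an adjusted p of 0.0492 by limma, just under the threshold. CLK1 passed in 7 of 13 alternative fits, and not without either shWDR43 replicate (adjusted p = 0.417 without replicate 1, 0.159 without replicate 2), with the replicate block (adjusted p = 0.0902) or with upper-quartile scaling (adjusted p = 0.0535), with a log2 difference between -0.42 and -0.29 in these fits.

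CLK2 was at 27.9 and 26.9 FPKM in shWDR43, against 33.7 and 32.2 FPKM in shNC. The groups did not overlap, but the log2 difference of -0.26 did not pass (adjusted p = 0.0950 by limma). CLK3 was at 43.7 and 41.6 FPKM in shWDR43, against 43.8 and 51.9 FPKM in shNC, where shNC replicate 2 stood above the other 3 libraries (log2 difference -0.16, adjusted p = 0.349 by limma). The CLK2 difference ran from -0.29 to -0.22 with a library left out. CLK3 had a log2 difference of -0.28 without shNC replicate 1, and of -0.04 without shNC replicate 2. CLK3 shares exonic bases with EDC3 on the opposite strand, and whether reads were counted by strand is not known. CLK4 was at 5.68 and 5.35 FPKM in shWDR43, against 7.20 and 5.33 FPKM in shNC, and its groups overlapped (log2 difference -0.15, adjusted p = 0.539 by limma). Its sign depended on the control library, with a log2 difference of 0.04 without shNC replicate 1 and of -0.33 without shNC replicate 2.

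TRA2A and TRA2B encode SR-like proteins that bind purine-rich exonic enhancers. TRA2A (ENSG00000164548) was at 52.8 and 51.6 FPKM in shWDR43, against 63.1 and 72.1 FPKM in shNC. Both knockdown libraries were lower, with a ratio of means of 0.772, and the log2 difference of -0.36 ± 0.09 (SE) did not pass (adjusted p = 0.0586 by limma). TRA2B (ENSG00000136527) was at 35.3 and 34.5 FPKM in shWDR43, against 43.6 and 40.7 FPKM in shNC, also without overlap (log2 difference -0.26 ± 0.08, adjusted p = 0.0897 by limma). With the replicate block the adjusted p was 0.0968 for TRA2A and 0.177 for TRA2B by limma. With a library left out, the log2 difference ran from -0.46 to -0.27 for TRA2A and from -0.31 to -0.22 for TRA2B. TRA2A exceeded TRA2B in every library, by 1.497-fold and 1.495-fold in shWDR43 and by 1.45-fold and 1.77-fold in shNC.

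**Figure D2:**
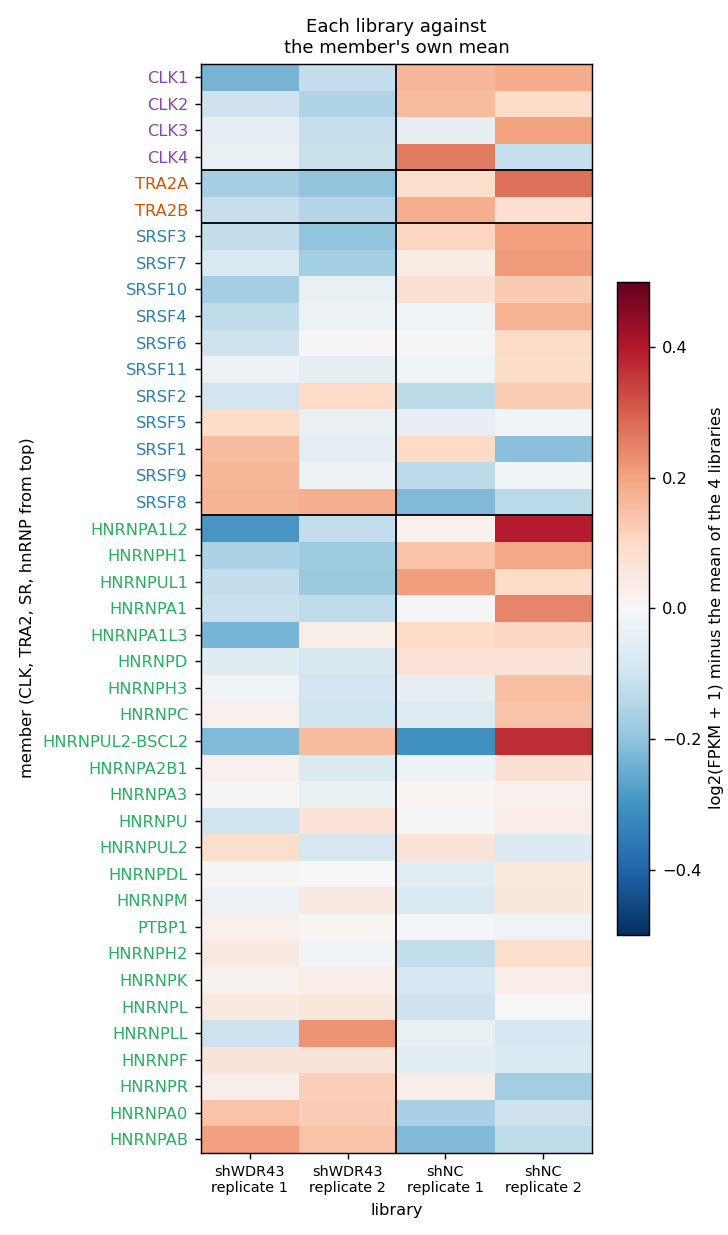
Each cell gives log2(FPKM + 1) of a member in a library minus that member's mean over the 4 libraries, with the shWDR43 libraries on the left. CLK1, CLK2, TRA2A and TRA2B are below their mean in both shWDR43 libraries and above it in both shNC libraries, HNRNPAB and HNRNPA0 show the opposite, and shNC replicate 2 carries several of the highest values.

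None of the 11 tested SR genes passed by limma, and 4 had an unadjusted p below 0.05, a share of 36.4% against 26.4% of all tested genes and 34.8% of those at a mean of 20 FPKM or more, as 10 of the 11 are. The SR gene with the smallest p was SRSF3 (ENSG00000112081, chromosome 6, 36594353 to 36605600, plus strand), which links splicing to mRNA export through the export receptor NXF1. It was at 37.4 and 35.4 FPKM in shWDR43, against 43.9 and 47.04 FPKM in shNC. The groups did not overlap, and the log2 difference of -0.31 ± 0.08 (SE) had an adjusted p of 0.0642 by limma. SRSF3 passed in 5 of 13 alternative fits. They were the filter at 5 FPKM, protein-coding genes alone, the crossed block and the fits without a shNC library. All of them called a larger share of all genes than the main fit. SRSF3 did not pass with the replicate block (adjusted p = 0.125 by limma) or without either shWDR43 replicate. Its log2 difference ran from -0.36 to -0.27 with a library left out. SRSF7, another NXF1 adaptor with a zinc knuckle, was at 31.7 and 29.6 FPKM in shWDR43, against 34.3 and 38.9 FPKM in shNC (log2 difference -0.25, adjusted p = 0.140 by limma). SRSF10, a splicing repressor when dephosphorylated, was at 31.7 and 34.8 FPKM in shWDR43, against 37.8 and 39.2 FPKM in shNC (log2 difference -0.21, adjusted p = 0.173 by limma). All 3 lay lower in both knockdown libraries than in either control library. SRSF7 had a log2 difference of -0.34 without shNC replicate 1 and of -0.16 without shNC replicate 2. Without shWDR43 replicate 1 it was -0.30, and without shWDR43 replicate 2 it was -0.20.

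SRSF8, an intronless relative of SRSF2 formed by retroposition, was the only SR gene with both shWDR43 libraries above both shNC libraries. It was at 4.08 and 4.13 FPKM in shWDR43, against 2.88 and 3.12 FPKM in shNC, a ratio of 1.37 (log2 difference 0.35 ± 0.11, adjusted p = 0.0907 by limma, 0.147 with the replicate block). Its reads may be shared with SRSF2, so the level is uncertain. SRSF2 itself, known as SC35 and a marker of nuclear speckles, was at 37.1 and 42.6 FPKM in shWDR43 and at 36.2 and 43.5 FPKM in shNC. Its log2 difference was 0.00 with a 95% interval from -0.26 to 0.26, and it shares exonic bases with MFSD11 on the opposite strand.

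The other SR genes differed by less. SRSF4 was at 36.1 and 38.7 FPKM in shWDR43 and at 39.1 and 44.8 FPKM in shNC, and SRSF11 at 68.6 and 67.6 FPKM in shWDR43 and at 68.8 and 74.5 FPKM in shNC. In both, the knockdown libraries lay below the controls by a narrow margin. SRSF1, the prototype of the SR proteins, was at 71.9 and 62.1 FPKM in shWDR43 and at 69.003 and 55.5 FPKM in shNC, with overlap. SRSF1 is uncertain because ENSG00000266086, at a mean of 27.3 FPKM in shWDR43 and 24.9 FPKM in shNC, overlaps its exons on the same strand. SRSF9 was the most abundant SR gene, at 121 and 106 FPKM in shWDR43 and at 98.3 and 107 FPKM in shNC, and it shares exonic bases with GATC on the opposite strand. SRSF5 and SRSF6 overlapped between groups, with log2 differences of 0.05 and -0.09. SRSF12 was not tested, as it stayed between 0.0202 and 0.236 FPKM.

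**Figure D3:**
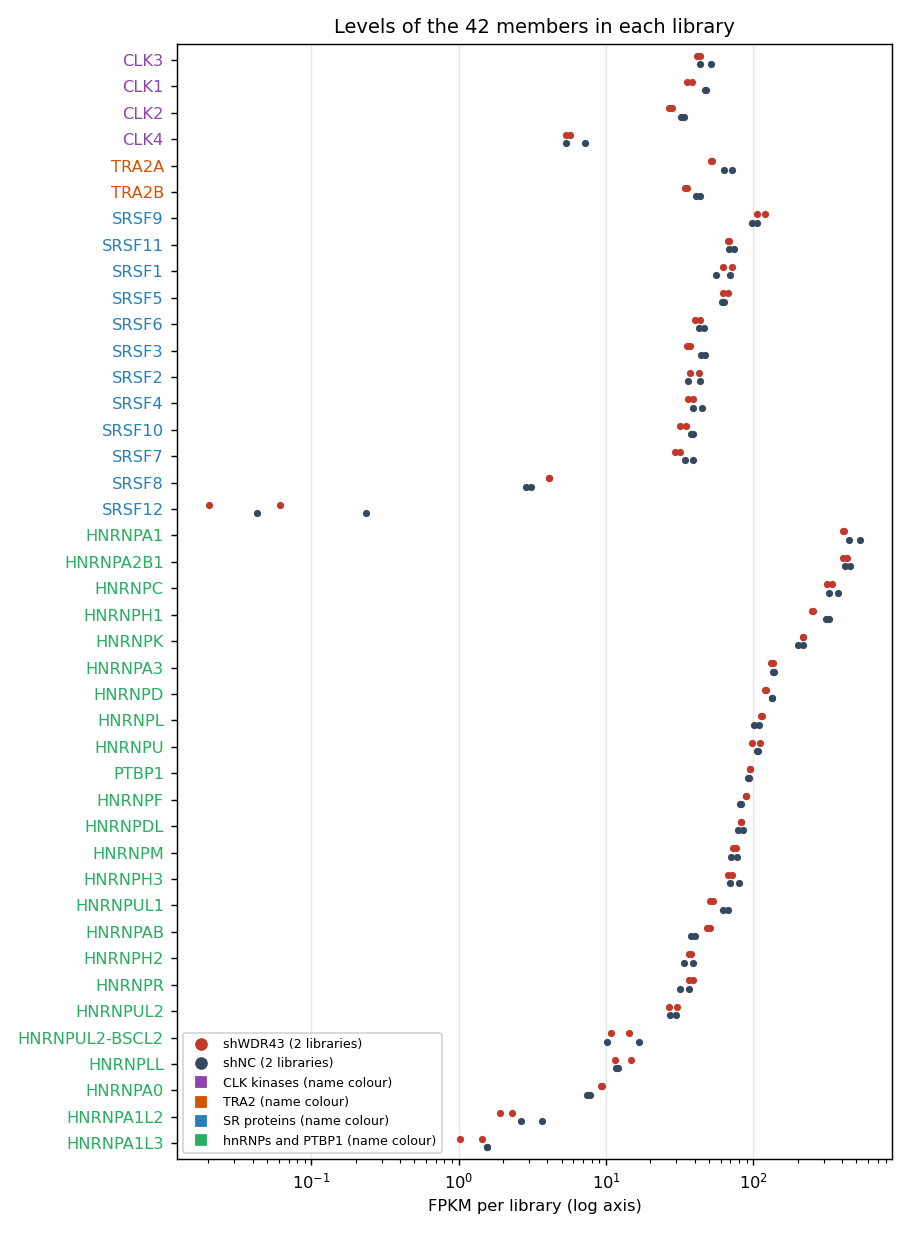
FPKM of all 42 members in each of the 4 libraries on a log axis, ordered by mean level within each family, with shWDR43 points above shNC points in each row. HNRNPA1 and HNRNPA2B1 are highest, between 409 and 529 FPKM, and SRSF12 is lowest, at 0.236 FPKM or less.

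Among the 24 hnRNP genes, 1 rose and 0 fell by limma, and 5 had an unadjusted p below 0.05, a share of 20.8%. HNRNPAB (ENSG00000197451, chromosome 5, 178204507 to 178211163, plus strand) encodes an RNA-binding protein of the A/B and D group. It was at 50.98 and 48.8 FPKM in shWDR43, against 37.7 and 40.3 FPKM in shNC. Both knockdown libraries were higher, with a mean of 49.9 ± 1.56 FPKM in shWDR43 and 38.99 ± 1.83 FPKM in shNC (SD, n = 2 each), a ratio of 1.28. The log2 difference was 0.35 ± 0.08 (SE), with an adjusted p of 0.0492 by limma. HNRNPAB passed in 6 of 13 alternative fits, and not without either shWDR43 replicate (adjusted p = 0.361 without replicate 1, 0.204 without replicate 2), with the replicate block (adjusted p = 0.0963) or with median-ratio scaling (adjusted p = 0.0928), at log2 differences from 0.29 to 0.38. PHYKPL overlaps HNRNPAB exons on the opposite strand and was at 11.98 and 12.1 FPKM in shWDR43, against 14.02 and 15.1 FPKM in shNC, so reads in the overlap cannot be assigned with certainty. The related HNRNPD, which binds AU-rich elements, was at 123 and 121 FPKM in shWDR43 and at 135 and 134 FPKM in shNC (log2 difference -0.14, adjusted p = 0.326 by limma). The ratio of HNRNPAB to HNRNPD was 0.415 and 0.403 in shWDR43 and 0.279 and 0.2996 in shNC.

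The F and H proteins bind runs of guanines. HNRNPH1 (ENSG00000169045), the most abundant of them, was at 254 and 250.2 FPKM in shWDR43, against 313 and 324 FPKM in shNC. The groups lay well apart relative to their spread, with a ratio of 0.790, but the log2 difference of -0.34 ± 0.10 (SE) did not pass (adjusted p = 0.0782 by limma, 0.211 with the replicate block). With a library left out, the log2 difference ran from -0.36 to -0.31. HNRNPF was at 89.3 FPKM in both shWDR43 libraries, against 82.3 and 80.8 FPKM in shNC, above the controls in each (log2 difference 0.13, adjusted p = 0.338 by limma). The ratio of HNRNPH1 to HNRNPF was 2.84 and 2.80 in shWDR43 and 3.81 and 4.01 in shNC. HNRNPH2 and HNRNPH3 overlapped between groups, with log2 differences of 0.03 and -0.11. HNRNPH2 also shares exons with the readthrough gene RPL36A-HNRNPH2, and its reads may be shared with HNRNPH1.

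HNRNPA1, a splicing silencer and the most abundant member, was at 414 and 409 FPKM in shWDR43 and at 444 and 529 FPKM in shNC. Both knockdown libraries were below the controls, with a wide gap between the 2 shNC libraries (log2 difference -0.24, adjusted p = 0.255 by limma). Without shNC replicate 1 the log2 difference was -0.36, and without shNC replicate 2 it was -0.11. The copies HNRNPA1L2 and HNRNPA1L3 are near-identical to it. HNRNPA1L2 was at 1.92 and 2.28 FPKM in shWDR43, against 2.63 and 3.69 FPKM in shNC (log2 difference -0.41 ± 0.15, adjusted p = 0.140 by limma). Its log2 difference was -0.60 without shNC replicate 1 (adjusted p = 0.0330 by limma) and -0.23 without shNC replicate 2 (adjusted p = 0.288). HNRNPA1L3 was at 1.03 and 1.43 FPKM in shWDR43, against 1.55 and 1.55 FPKM in shNC. The 25 HNRNPA1 pseudogenes listed summed to 10.7 and 11.6 FPKM in shWDR43, against 15.4 and 14.3 FPKM in shNC. All these lay lower in the knockdown, and because reads of these sequences can be split among copies, their differences are not independent of each other. HNRNPA2B1, which overlaps CBX3 on the opposite strand, was at 436 and 409 FPKM in shWDR43 and at 422 and 453 FPKM in shNC, with overlap. HNRNPA3 was at 136 and 132 FPKM in shWDR43 and at 136 and 137 FPKM in shNC, a narrow gap. HNRNPA0, an intronless gene whose product binds AU-rich elements, was at 9.45 and 9.30 FPKM in shWDR43, against 7.45 and 7.80 FPKM in shNC, a ratio of 1.23 (log2 difference 0.27 ± 0.09, adjusted p = 0.115 by limma).

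HNRNPUL1, a relative of the nuclear scaffold protein hnRNP U, was at 53.6 and 51.1 FPKM in shWDR43, against 67.5 and 62.4 FPKM in shNC. The groups did not overlap, and the log2 difference of -0.31 ± 0.08 (SE) did not pass (adjusted p = 0.0709 by limma, 0.132 with the replicate block). With a library left out, the difference ran from -0.36 to -0.25. HNRNPUL1 shares exonic bases with TGFB1 on the opposite strand, which was at 20.2 and 19.8 FPKM in shWDR43 and at 16.7 and 18.2 FPKM in shNC. HNRNPU itself was at 98.4 and 111 FPKM in shWDR43 and at 105 and 108 FPKM in shNC, and it overlaps COX20 on the opposite strand. HNRNPUL2 was at 30.6 and 26.97 FPKM in shWDR43 and at 30.04 and 27.3 FPKM in shNC, with a 95% interval of the log2 difference from -0.22 to 0.22. The readthrough HNRNPUL2-BSCL2, which RefSeq types as non-coding, shares its exons and had the widest interval of the hnRNP genes above 10 FPKM, from -0.57 to 0.44.

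PTBP1, the polypyrimidine tract-binding protein, was at 95.5 and 94.7 FPKM in shWDR43 and at 93.6 and 92.7 FPKM in shNC, with a 95% interval of the log2 difference from -0.16 to 0.22. HNRNPL, which binds CA repeats, was at 113 and 114 FPKM in shWDR43 and at 102 and 110 FPKM in shNC, and its paralog HNRNPLL at 11.5 and 14.7 FPKM in shWDR43 and at 12.1 and 11.7 FPKM in shNC. HNRNPK, which binds cytosine-rich tracts, was at 216 and 218 FPKM in shWDR43 and at 201 and 218 FPKM in shNC. HNRNPC, which binds uridine tracts, was at 344 and 317 FPKM in shWDR43 and at 325 and 374 FPKM in shNC. HNRNPM, HNRNPDL and HNRNPR had log2 differences of 0.02, 0.00 and 0.15 and adjusted p-values of 0.931, 0.989 and 0.362 by limma. By level, HNRNPA1, HNRNPA2B1, HNRNPC and HNRNPH1 led the family and made up 51.9% and 50.6% of its summed FPKM in shWDR43, against 53.4% and 55.2% in shNC.

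Annotated unproductive transcripts did not enter the choice of members, and 31 of the 41 (75.6%) have a nonsense-mediated decay transcript. All 11 tested SR genes and both TRA2 genes have at least 1 nonsense-mediated decay transcript in GENCODE release 29, as do 3 of 4 CLK genes and 15 of 24 hnRNP genes. Among 11422 tested protein-coding genes the share was 44.5%. Retained-intron transcripts are annotated for 28 of the 41 members, or 68.3%, against 60.1% of tested protein-coding genes. Members with and without a retained-intron transcript had the same median log2 difference of -0.06. Among tested protein-coding genes the medians were 0.05 with and 0.08 without one. The 15 members with 4 or more such transcripts had a median of -0.15, and CLK1, CLK3, CLK4, TRA2A and TRA2B are among them. The cut at 4 was not applied to all tested protein-coding genes, and a link to retained introns was not tested. HNRNPH1 has the most, 16 among 50 transcripts, and CLK1 has 8 among 15. HNRNPU with 10 (log2 difference -0.03), HNRNPL and SRSF5 with 8 each (0.10 and 0.05) and PTBP1 with 7 (0.03) had differences nearer to 0. The deposited values give 1 level per gene and do not separate productive from unproductive transcripts. Members have a median of 11 annotated transcripts, against 8 for tested protein-coding genes, and the shares were not adjusted for this.

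**Figure D4:**
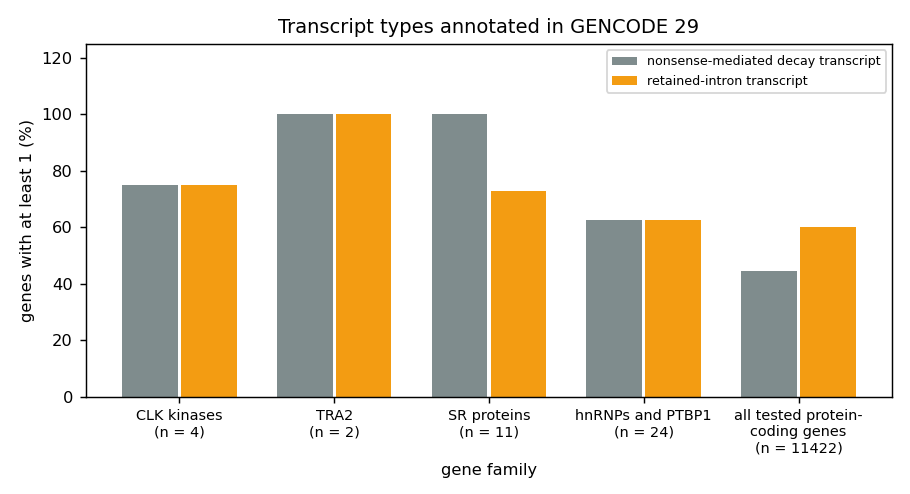
Bars give the percent of tested genes of each family with at least 1 annotated nonsense-mediated decay transcript (grey) or retained-intron transcript (orange) in GENCODE release 29. Grey bars reach 100% for SR and TRA2 genes, against 44.5% for tested protein-coding genes.

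The 250 bases before the RefSeq start (GRCh38.p14, written 5' to 3' on the gene's strand) are shown for the genes that passed, CLK1 and HNRNPAB, and for SRSF3, the SR gene with the smallest p. They lie at chr2:200864659-200864908 (minus strand), chr5:178204283-178204532 (plus strand) and chr6:36594112-36594361 (plus strand). Capitals mark matches on either strand to 7 motifs: the E-box CACGTG, the CCAAT box, the GC box GGGCGG, the TATA box TATAAA, the ETS site CCGGAAG, the palindromic BANP motif and TTGCATCA, a core of ATF4 composite elements.
CLK1: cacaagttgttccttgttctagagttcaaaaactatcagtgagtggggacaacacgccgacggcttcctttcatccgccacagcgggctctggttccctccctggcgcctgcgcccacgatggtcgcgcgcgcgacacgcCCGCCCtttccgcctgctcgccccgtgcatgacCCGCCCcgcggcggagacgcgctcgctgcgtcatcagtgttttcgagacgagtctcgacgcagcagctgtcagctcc
HNRNPAB: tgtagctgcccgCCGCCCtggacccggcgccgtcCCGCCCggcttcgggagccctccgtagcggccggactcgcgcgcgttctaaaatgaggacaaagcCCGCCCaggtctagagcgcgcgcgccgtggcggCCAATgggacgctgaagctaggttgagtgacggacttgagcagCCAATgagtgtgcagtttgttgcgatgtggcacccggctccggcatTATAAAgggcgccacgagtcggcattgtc
SRSF3: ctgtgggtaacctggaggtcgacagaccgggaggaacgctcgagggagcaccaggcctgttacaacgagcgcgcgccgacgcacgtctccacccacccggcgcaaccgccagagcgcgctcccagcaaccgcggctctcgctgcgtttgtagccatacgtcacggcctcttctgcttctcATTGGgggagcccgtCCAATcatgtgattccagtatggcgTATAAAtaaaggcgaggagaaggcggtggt
CLK1 held 2 GC boxes, starting 110 and 77 bases before the start, and no TATA box. HNRNPAB held a TATA box 29 bases before the start, 2 CCAAT boxes and 3 GC boxes. SRSF3 held a TATA box 30 bases before the start and 2 CCAAT boxes, with no GC box, and no matches overlapped in these windows. The windows reach into the genes as GENCODE release 29 places them, by 86 bases for CLK1, 26 for HNRNPAB and 9 for SRSF3. The CLK1 GC box at 77 lies inside the annotated gene, and 3 of the 6 bases of the HNRNPAB TATA match do. A match describes letters and is not evidence of binding.

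Of the 41 tested members 37 were in the promoter table, with a median GC content of 65.6% in these 250 bases, against 58.0% over 27305 genes. GC boxes were found in 25 of the 37 (67.6%, against 42.3% of all promoters) and CCAAT boxes in 18 (48.6%, against 33.04%). Both counts include HNRNPUL2 and its readthrough HNRNPUL2-BSCL2, whose annotated GENCODE starts lie close together, so their windows may share bases. E-boxes were found in 8, those of CLK2, CLK4, HNRNPD, HNRNPH3, HNRNPA3, HNRNPH2, HNRNPM and HNRNPDL (21.6%, against 6.49%). The TATA box was found in 5 (13.5%, against 11.1%) and the ETS site in 5 (13.5%, against 8.82%). The BANP motif was found in SRSF10 and HNRNPK (5.41%, against 0.410%), and the ATF4 core in 0, against 0.820% of all promoters. GC-rich windows hold more of the GC-rich motifs, and the shares were not adjusted for this. The 27305 promoters also include those of genes that were not tested here, whereas the 37 members were all tested. Neither CLK1 nor HNRNPAB held an E-box.

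Other splicing genes were read from the same fit. Of 8 genes for the kinases, phosphatase subunits and importer that act on SR proteins, 7 were tested and 0 passed by limma, 2 having an unadjusted p below 0.05 (26.4% of all tested genes did). The median log2 difference was 0.11, with 6 of 7 positive, against 58.0% of all tested genes. SRPK1, the main cytoplasmic SR protein kinase, was at 28.6 and 30.7 FPKM in shWDR43, against 25.8 and 25.5 FPKM in shNC (log2 difference 0.20, adjusted p = 0.165 by limma), and DYRK1A, a kinase of speckles, at 7.28 and 6.19 FPKM in shWDR43, against 5.37 and 5.43 FPKM in shNC (log2 difference 0.27, adjusted p = 0.168 by limma). In both, the knockdown libraries were higher, opposite in sign to the CLK genes. SRPK2 overlapped between groups (log2 difference 0.11), and PRPF4B overlapped with a negative difference (-0.15). Whether these kinase genes differ from the CLK genes was not tested.

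Of 28 identifiers for other splicing regulators (27 genes, with MATR3 listed under 2 identifiers), 1 rose and 0 fell, with a median log2 difference of -0.10. Over all tested genes 6.26% passed. Negative differences numbered 20 of the 28, against 41.97% of all tested genes. Both shWDR43 libraries lay below both shNC libraries for 10 and above them for 5, against 21.5% and 35.8% of all tested genes. The gene that rose was TARDBP, which encodes TDP-43 and controls its own level through its transcript, at 34.3 and 35.0 FPKM in shWDR43, against 27.2 and 26.9 FPKM in shNC (log2 difference 0.35 ± 0.08, adjusted p = 0.0445 by limma). Of 25 core spliceosome and speckle genes, 1 rose and 0 fell, with a median log2 difference of 0.00. Negative differences numbered 13 of the 25, and the groups lay apart with shWDR43 below for 9 and above for 6. The core gene that rose was SNRPB, the gene of the core Sm proteins B and B', at 63.1 and 60.2 FPKM in shWDR43, against 44.1 and 47.4 FPKM in shNC (log2 difference 0.42 ± 0.08, adjusted p = 0.0334 by limma). Both genes were higher in each knockdown library than in either control library. Each passed in 7 of 13 alternative fits, and neither passed with median-ratio scaling (adjusted p = 0.0778 for TARDBP and 0.0583 for SNRPB) or without either shWDR43 replicate.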

How the data were processed

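RNA-seq values of 4 HCT116 libraries, 2 per group, were used. Per the labels' protocols, Trizol RNA (1 ug) went into Illumina TruSeq RNA libraries. The submitters' processing notes name CASAVA 1.8, Trimmomatic, FastQC, HISAT2, RSEM and edgeR, with the GRCh38 build, without their role. Neither an annotation release nor strandedness of counting is given in the sources used. The authors deposited 1 value per gene and library, read here as FPKM from the values, since they are not whole and sum to 393582 to 413758; TPM over part of the genes remains possible. Low values showed no whole-read steps (at most 1.01% of genes fell in any 1% wide ratio window). Depth is therefore unknown, and intervals based on read numbers are not reported.

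Of 29286 identifiers, 29170 had a symbol and 28468 a GENCODE release 29 entry; 1 blank entry per file was left out. The rule first matched 87 symbols, from which 43 pseudogenes (RefSeq type, or GENCODE where RefSeq has none) and 2 antisense or divergent transcripts were removed. The members and gene lists were chosen with earlier results of these data known. limma 3.58.1 in R 4.3.3 was fitted to log2(FPKM + 1) of the 13303 genes that reached 1 FPKM in 2 libraries or more, with group as the only term, a mean-variance trend and robust moderation, and was tested on simulated data. P-values are two-sided and adjusted by Benjamini-Hochberg over all tested genes, with a threshold of 0.05. Log2 differences are shWDR43 minus shNC of log2(FPKM + 1), so changes of low genes are understated, and ratios are of mean FPKM. Full values are given for members that passed, the 4 with the smallest p per family and all TRA2 and CLK genes, and members without overlap at a log2 difference of 0.3 or more in size; others were described as their data allowed.

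Alternatives were a pseudocount of 0.1, no filter, a filter at 5 FPKM, median-ratio scaling (over genes at 1 FPKM or more in every library), upper-quartile scaling, robust settings off, the replicate number as a block, and omission of each library in turn. Chosen after seeing the data were a block with the numbers crossed and a fit restricted to protein-coding genes. Other software was Python 3.11.15, pandas 2.3.3, scipy 1.17.1 and matplotlib 3.10.9.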

Additional observations from a re-analysis of the deposited data

How the results depend on the processing

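The labels do not say whether a replicate number marks a shared culture or day. The replicate difference of the 2 groups correlated across genes at -0.147. With 2 libraries a group, this value cannot decide whether the numbers pair the libraries. With the replicate block 413 genes were higher and 150 lower and 0 members passed. With the crossed block 1375 genes were higher and 579 lower, 14.7% of all tested genes. In that fit 1 SR, 2 TRA2, 2 hnRNP and 1 CLK member were lower, and 1 hnRNP member was higher. Without the filter 15 genes were higher and 2 lower and 0 members passed. The number of higher genes was 298 after median-ratio scaling, which ended the hnRNP call (0 higher), and 194 after upper-quartile scaling, which ended both calls (0 hnRNP members higher, 0 CLK members lower), as robust settings off did (0 and 0). A filter at 5 FPKM, and protein-coding genes alone, each added 1 SR and 1 TRA2 member lower, with 4 members called in each. The share of all genes called rose too, from 6.26% in the main fit to 12.2% and 9.82%. The pseudocount of 0.1 changed no member's call. Leaving out a library gave 245 to 1802 genes higher and 132 to 784 lower, with SR members 0 to 1 higher and 0 to 2 lower, TRA2 members 0 to 2 lower, hnRNP members 0 to 1 higher and 0 to 3 lower, and CLK members 0 to 2 lower. The higher numbers came without a shNC library and the lower without a shWDR43 library. Median log2 differences moved to -0.38 and -0.38 (TRA2), -0.0758 and -0.0830 (hnRNP) and -0.27 and -0.28 (CLK) under median-ratio and upper-quartile scaling, and the CLK median ran from -0.31 to -0.18 with a library left out. Over 529 values of a member under an alternative, 493 stayed on the same side of the threshold, 13 lost a call, 23 gained it and 0 called values reversed. The cause of these shifts was not tested. With 1 library of a group left out, the lone library is assumed to vary like the other group. The depth behind each value is unknown, so its counting error cannot be given.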
